A study of Mus musculus with 16 samples.

Results

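Pericytes and other mural cells of the mouse prefrontal cortex were picked out of single-nucleus RNA-Seq data by their marker counts. A nucleus was taken as mural when it held at least 2 unique molecular identifiers (UMIs, each counting 1 captured RNA molecule) summed over Vtn, Rgs5, Kcnj8, Abcc9, Atp13a5 and Pdgfrb, at least 2 of these genes, at most 1 UMI of the neuronal genes Slc17a7, Gad1 and Gad2 together, and 0 UMIs of Flt1, Cldn5, Col1a2, Dcn, Aqp4, Mag, Csf1r and Pdgfra, which mark endothelial cells, fibroblasts, astrocytes, oligodendrocytes, microglia and oligodendrocyte precursors. The rule found 189 of 114512 nuclei (0.165%). They held 203766 of the 216742276 UMIs, and 13210 of the 19999 genes in the table had at least 1 UMI in them.

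The nuclei came from 16 male mice aged 22 weeks, 4 in each of 4 groups, and each mouse gave 1 library, so mice and not nuclei are the replicates. WT mice of strain B6;129 and 3xTg-AD mice breathed alcohol vapor over several cycles (alcohol groups) or air (control groups). Among the changes that 3xTg-AD mice carry are human APP and tau transgenes under a Thy1 cassette, which is active mainly in neurons, and these human transgenes have no row in the gene table. In the library labelled WT alcohol mouse 17, 1 gene described below, Rnf121, was at the level of the 3xTg-AD mice. It was kept in its labelled group, and its label was not tested. Before each bout the alcohol groups were injected with ethanol and pyrazole, an inhibitor of alcohol dehydrogenase, and the control groups with pyrazole, so all 4 groups received pyrazole.

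Pericytes sit on the outer wall of brain capillaries, inside the basement membrane that they share with the endothelium. They are recruited by PDGF-B from endothelial cells through the receptor PDGFRβ, they help to keep the blood-brain barrier tight, and they adjust capillary diameter and potassium and solute transport. Smooth muscle cells, the other mural type, wrap arterioles and hold far more contractile protein.

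Among the rule genes, Vtn encodes vitronectin, a matrix and plasma protein. Rgs5 encodes a regulator of G protein signaling, and Atp13a5 a P5-type transport ATPase used as a marker of brain pericytes. Kcnj8 and Abcc9 encode the pore and the sulfonylurea receptor subunit of 1 ATP-sensitive potassium channel. They lie 16247 bases apart on the minus strand of mouse chromosome 6 (GRCm38), with Kcnj8 at chr6:142564837-142571614 and Abcc9 at chr6:142587862-142702315. Atp13a5 lies at chr16:29231851-29378732 on the minus strand, Vtn at chr11:78499091-78502324 and Rgs5 at chr1:169655501-169695813, both on the plus strand.

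The promoters of Atp13a5, Abcc9 and Kcnj8 are shown because these were the 3 rule markers whose level in mural nuclei stood highest over the other nuclei. Each is the 250 bases before the RefSeq transcript start (GRCm38.p6), written 5′ to 3′ on the gene's strand, at chr16:29378733-29378982, chr6:142702275-142702524 and chr6:142571615-142571864. The 3′ end of the Abcc9 window lies inside the gene span given above, because this transcript starts within that span. Capitals mark matches to core motifs, read on both strands.
Atp13a5: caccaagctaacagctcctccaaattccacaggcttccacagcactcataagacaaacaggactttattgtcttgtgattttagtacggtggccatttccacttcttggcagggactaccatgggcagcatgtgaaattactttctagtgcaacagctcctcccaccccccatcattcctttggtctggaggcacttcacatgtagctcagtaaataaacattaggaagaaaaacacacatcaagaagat
Abcc9: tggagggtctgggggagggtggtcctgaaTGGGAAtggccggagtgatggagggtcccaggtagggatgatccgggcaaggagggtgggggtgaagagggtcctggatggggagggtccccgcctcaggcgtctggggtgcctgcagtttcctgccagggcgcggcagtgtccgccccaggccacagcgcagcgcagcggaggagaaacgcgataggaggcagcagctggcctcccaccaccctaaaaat
Kcnj8: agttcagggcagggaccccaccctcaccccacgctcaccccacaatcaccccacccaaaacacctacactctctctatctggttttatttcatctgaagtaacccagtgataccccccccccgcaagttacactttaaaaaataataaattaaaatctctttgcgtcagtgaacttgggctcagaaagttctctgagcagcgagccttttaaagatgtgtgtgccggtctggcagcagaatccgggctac
The cores searched were CCCNNGGG for EBF factors, TGGGAA for RBPJ, the DNA-binding partner of Notch, and TCACACCT for T-box factors. Abcc9 held 1 RBPJ core, and the other promoters shown held no match in this window. Of 32851 promoters of the same length, 11.8% held the EBF core, 21.6% the RBPJ core and 1.12% the T-box core, so a match to the RBPJ core was common, and these matches describe letters only.

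The number of mural nuclei per mouse was small. WT control mice 26, 27, 28 and 36 had 9, 7, 5 and 17, and WT alcohol mice 6, 7, 17 and 18 had 14, 3, 20 and 16. 3xTg-AD control mice 12, 13, 14 and 21 had 12, 13, 12 and 12, and 3xTg-AD alcohol mice 4, 31, 33 and 34 had 23, 9, 11 and 6. Thus 10 of 16 mice reached 10 mural nuclei, among them only mouse 36 in the WT control group.

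Mural nuclei were shallow. Their median was 864 UMIs (626 to 4233) and 642 genes, against 1545 UMIs and 1020 genes in the remaining nuclei. The median was 1255 UMIs in nuclei with at least 2 marker genes and 1044 in those that also met the neuronal limit. It was 1310 UMIs in the 176 nuclei then left out for a UMI of another cell type. These upper limits pass shallow nuclei more readily, so the depth is not read as a trait of mural cells. Libraries held 4955 to 9096 nuclei and 9622031 to 17544364 UMIs. In WT control mice 26 and 27 and 3xTg-AD control mouse 12, the ribosomal RNA-like transcript Gm42418 stood at 17914 to 29047 counts per 1000000 UMIs (CPM) over all nuclei, against 2059 to 4249 CPM in the other 13 mice. Barcodes recurred between libraries in 3400 nuclei (median of 14 for a pair of libraries), and 6 of these were mural, none of which shared its barcode with another mural nucleus.

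The markers that chose the nuclei are given as a description, without a test. Pdgfrb had 193 UMIs in 132 of the 189 nuclei, Atp13a5 201 UMIs in 130 nuclei and Vtn 206 UMIs in 117 nuclei. Rgs5 had 94 UMIs in 68 nuclei, Abcc9 63 UMIs in 52 nuclei and Kcnj8 34 UMIs in 29 nuclei. The pair most often found together was Atp13a5 with Pdgfrb, in 89 nuclei (47.1%), followed by Vtn with Pdgfrb in 74 and Vtn with Atp13a5 in 71. The channel partners Kcnj8 and Abcc9 met in 7 nuclei. The level of each marker in mural nuclei, in CPM of the summed UMIs, was 326 times its level in the remaining nuclei for Atp13a5, 319 times for Abcc9 and 253 times for Kcnj8. It was 122 times for Vtn, 89.8 times for Pdgfrb and 50.7 times for Rgs5.

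RNA free in the suspension gives UMIs in nuclei that do not express a gene. In 24057 nuclei with at least 3 UMIs of the neuronal genes (median 2714 UMIs), Pdgfrb was found in 1.33%, Vtn in 1.13% and Rgs5 in 1.04%. Atp13a5 was found in 0.320% of these neuron-rich nuclei, Abcc9 in 0.121% and Kcnj8 in 0.108%. At least 2 of the markers met in 66 neuron-rich nuclei (0.274%).

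**Figure D1:**
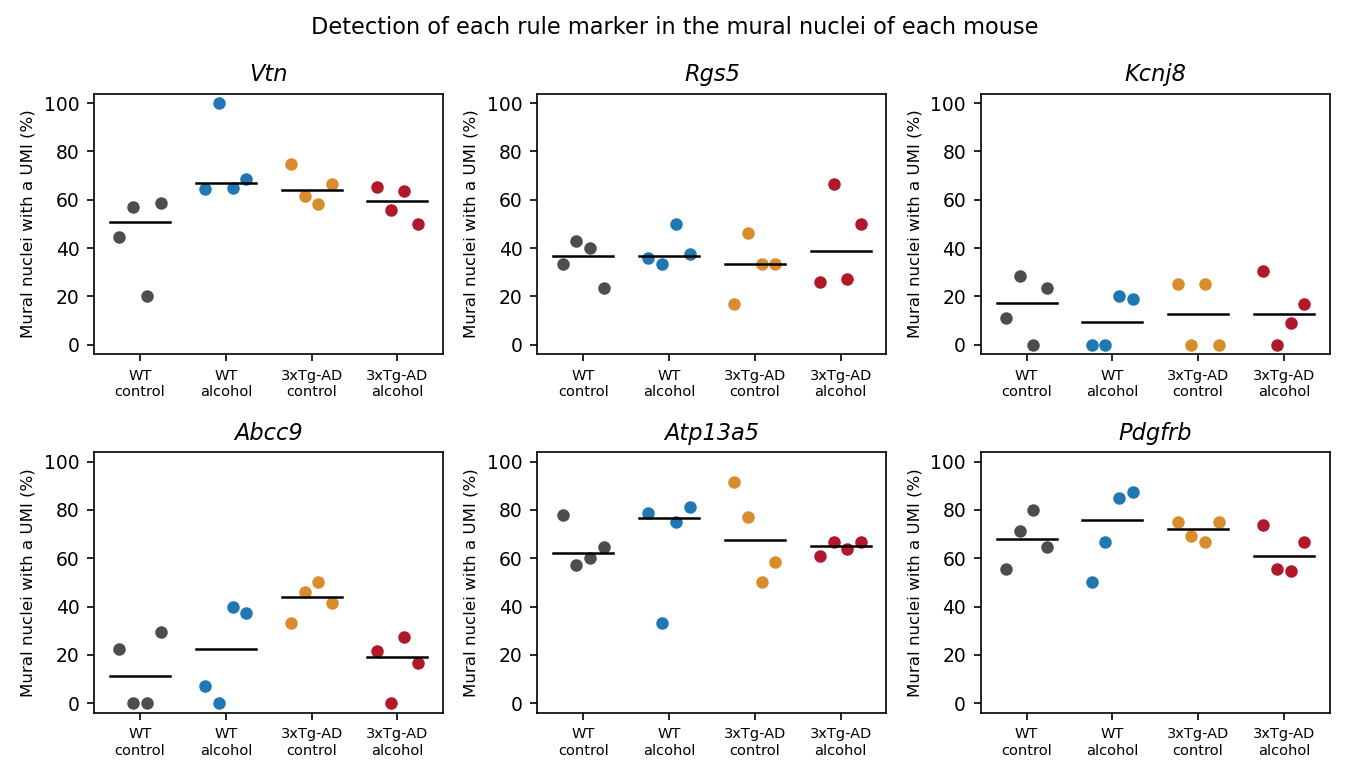
Percent of the mural nuclei of each mouse with at least 1 UMI of each rule marker (y axis), by group (x axis); points are mice and lines are group medians. The 4 genes Vtn, Rgs5, Atp13a5 and Pdgfrb were found in mural nuclei of all 16 mice, while Kcnj8 was found in those of 10 mice and Abcc9 in those of 12.

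The balance of the markers differed from mouse to mouse. In WT control mice 26, 27, 28 and 36, the mural nuclei held 2, 0, 0 and 7 UMIs of Abcc9, and in WT alcohol mice 6, 7, 17 and 18 they held 1, 0, 10 and 7. In 3xTg-AD control mice 12, 13, 14 and 21 they held 4, 7, 8 and 5, and in 3xTg-AD alcohol mice 4, 31, 33 and 34 they held 7, 0, 3 and 2. Abcc9 was therefore present in all 4 3xTg-AD control mice and missing from 4 mice in the other groups, each with 9 mural nuclei or fewer. Kcnj8 UMIs numbered 1, 2, 0 and 5 in the same WT control mice, 0, 0, 5 and 3 in WT alcohol mice, 3, 0, 4 and 0 in 3xTg-AD control mice and 9, 0, 1 and 1 in 3xTg-AD alcohol mice. In mice 13 and 28, Kcnj8 was listed at 0 in every nucleus of the library. The deposited table holds no gene with UMIs in 1 to 4 nuclei of a mouse, so rare genes can be at 0 in a mouse through that filter.

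Vtn UMIs in mural nuclei numbered 4, 4, 2 and 15 in WT control mice, 12, 3, 34 and 17 in WT alcohol mice, 11, 22, 14 and 17 in 3xTg-AD control mice and 29, 7, 12 and 3 in 3xTg-AD alcohol mice. Atp13a5 UMIs numbered 8, 5, 3 and 17, then 15, 1, 30 and 20, then 21, 12, 8 and 15, and then 19, 8, 15 and 4 in the same order of groups and mice. Pdgfrb UMIs numbered 5, 8, 4 and 16, then 11, 2, 30 and 22, then 14, 13, 14 and 11, and then 24, 5, 9 and 5. The counts were highest in WT alcohol mouse 17 for these 3 genes and low in WT alcohol mouse 7, which had 20 and 3 mural nuclei. The 4 groups overlapped in counts for each gene. In CPM, Vtn stood at 256 to 850 in WT control and at 959 to 1995 in 3xTg-AD control mice. Pdgfrb stood at 497 to 959 and at 1045 to 1220 CPM, and Atp13a5 at 384 to 964 and 693 to 1830 CPM. The rule chose the nuclei by these genes, so no difference between groups is read from their levels. Nuclei with exactly 2 marker UMIs were 55.3% of mural nuclei in WT control and 12.2% in 3xTg-AD control mice. Their part in these levels was not tested. For Rgs5 the counts were 4, 3, 2 and 4 in WT control mice, 6, 1, 15 and 7 in WT alcohol mice, 2, 10, 5 and 4 in 3xTg-AD control mice and 13, 11, 4 and 3 in 3xTg-AD alcohol mice.

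The nuclei just inside and just outside the rule were described by 26 other pericyte genes that the rule did not use. Their summed level was 3141 CPM in mural nuclei. It was 670 CPM in 106 nuclei that met the other limits with at least 2 UMIs of 1 marker gene, and 392 CPM in 1974 nuclei with 1 marker UMI, close to the 348 CPM of all remaining nuclei. In 37 nuclei that had the markers but exactly 2 neuronal UMIs, it was 1642 CPM. The limit of 0 on other cell types removed 176 nuclei with the markers, of which 131 held Flt1 or Cldn5, and these 131 stood at 2598 CPM.

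The label was set beside genes that the rule did not use. All 26 other pericyte genes were higher in mural than in remaining nuclei, where 37.9% of all genes were, and 22 of 26 were at least 5-fold higher, where 4.15% of all genes were. Their median ratio was 64.7, against 0.729 for all genes and 1.11 for all genes with a UMI in mural nuclei. At least 1 of them was found in 153 of the 189 nuclei (81.0%), against 47.8% of neuron-marker nuclei (median 2113 UMIs) and 39.0% of the nuclei with 1 marker UMI (median 1177 UMIs, against 864 in mural nuclei), and their sum stood above that of the remaining nuclei in 15 of 16 mice. The exception was WT control mouse 28, with 128 CPM from 5 nuclei. Nuclei picked by endothelial, fibroblast, astrocyte and neuronal markers held 978, 1248, 371 and 321 CPM of these genes. Since the genes were measured in the same nuclei that the markers chose, these values carry no test. The list was also chosen with earlier results of these data known, so it is not an independent check of the label.

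Transporters and enzymes stood among the genes with the highest ratios. Slc38a11, an amino acid transporter of the SLC38 family, had 50 UMIs in 40 mural nuclei (245 CPM), 516 times the remaining nuclei, and was found in 21.2% of mural and 0.0748% of neuron-rich nuclei. Enpep, the aminopeptidase that cleaves angiotensin II, had a ratio of 388. Art3, a member of the ADP-ribosyltransferase family, had a ratio of 131, and the long noncoding RNA Carmn of 551 from 28 UMIs.

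Ebf1, a transcription factor of the EBF family, had 75 UMIs and a ratio of 89.7, and was found in 27.5% of mural and 0.362% of neuron-rich nuclei, but endothelial-marker nuclei had it at a similar level (311 against 368 CPM). Zic1, a zinc finger factor, had 81 UMIs and a ratio of 36.02, but fibroblast-marker nuclei had it at a similar level (388 against 398 CPM). The receptor gene Notch3 had a ratio of 88.6, the integrin gene Itga1 of 78.4 and Cspg4, which encodes the NG2 proteoglycan, of 17.003. Higd1b and Ndufa4l2, homologs of subunits or partners of the respiratory chain, had ratios of 63.7 and 62.9. P2ry14 and Gucy1b1 were found in 13.2% and 21.2% of mural nuclei and in 26.4% and 21.2% of the deeper neuron-rich nuclei, while their levels were 133 and 240 CPM in mural and 114 and 88.0 CPM in neuron-rich nuclei.

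**Figure D2:**
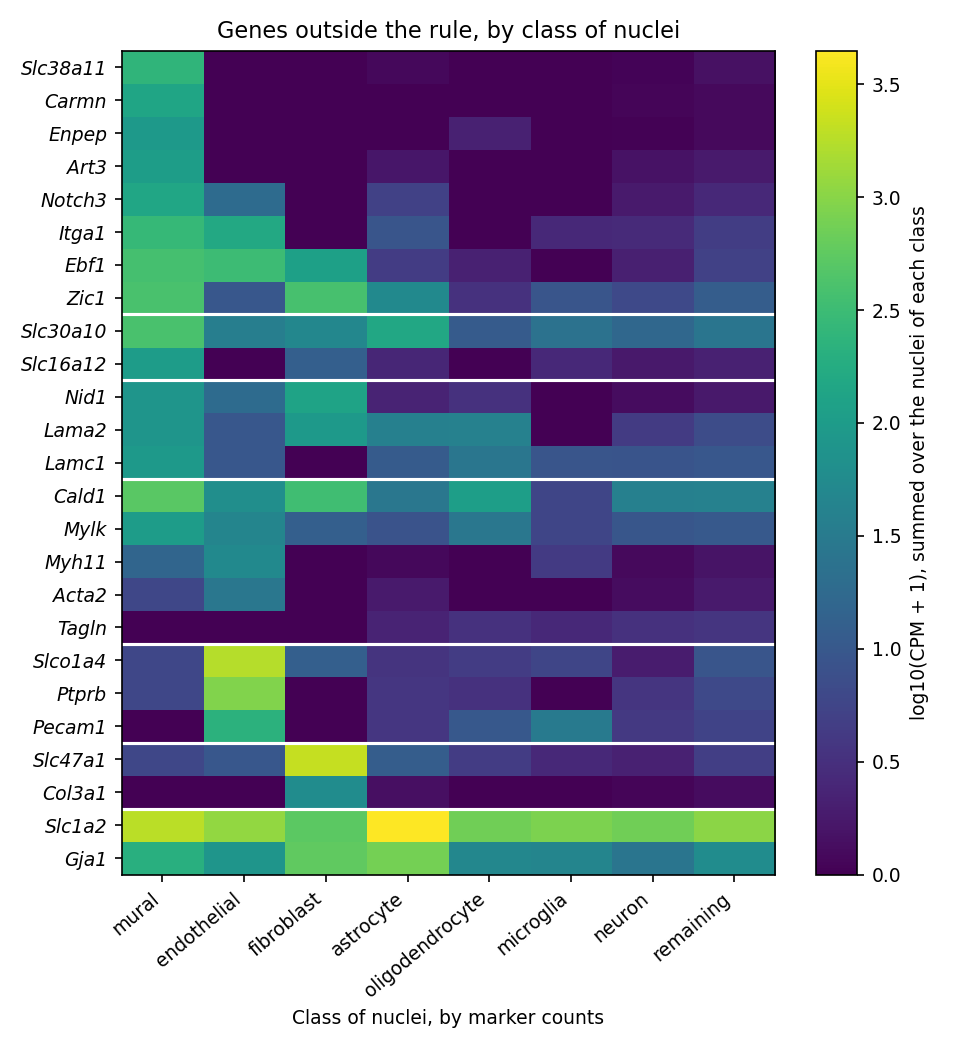
Level of genes outside the rule (rows; log10 of CPM + 1, color) in mural nuclei and in nuclei picked by the markers of other cell types (columns). Slc38a11, Carmn, Enpep and Art3 stood out in mural nuclei, while Tagln, Pecam1 and Col3a1 had 0 UMIs there; white lines part the gene lists.

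The defining genes of smooth muscle were nearly missing. Acta2, the smooth muscle actin, had 1 UMI, and Myh11, the smooth muscle myosin heavy chain, had 3 UMIs in 2 nuclei. Myl9, another contractile gene, had 8 UMIs in 8 nuclei. Tagln, Cnn1 and Myocd had 0 UMIs in 189 nuclei, which allows a share of up to 1.59% of nuclei with a UMI and a level of up to 14.7 CPM. It does not limit the share of nuclei that express these genes. Over all nuclei, Acta2 and Myh11 had UMIs in 8 mice each, Myocd in 11 and Cnn1 in 12. The filter that left no gene in 1 to 4 nuclei of a mouse can have set these genes to 0 in the other mice. The limits above count the nuclei of those mice as well. Nuclei with at least 2 marker genes held 131 UMIs of Acta2, Myh11, Tagln and Cnn1, and those that also met the neuronal limit held 45. Of these 45, 41 lay in the 176 nuclei left out for a UMI of another cell type and 4 in mural nuclei. The limits of the rule thus took out most of that signal. Of the 12 contractile genes, 7 were at least 5-fold higher than in the remaining nuclei, led in level by Cald1, the actin-binding caldesmon, with 106 UMIs (520 CPM, 13.1 times the remaining nuclei). Over all genes, 4.15% were at least 5-fold higher. Mylk, the myosin light chain kinase, had 21 UMIs and a ratio of 10.9, and Tpm1 had a ratio of 1.02.

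Of 22 genes of PDGF, TGF-beta, angiopoietin and Notch signaling, 16 were higher than in the remaining nuclei and 8 at least 5-fold. Over all genes, 37.9% were higher and 4.15% at least 5-fold. The sum of the 22 genes was 746 CPM in mural nuclei, below the 1911, 1317 and 1142 CPM of endothelial-, microglia- and fibroblast-marker nuclei. The ligand gene Pdgfb had 1 UMI in mural nuclei, at 0.155 times the remaining nuclei, while endothelial-marker nuclei held 329 CPM. Angpt1, the ligand made by mural cells, had 4 UMIs, and its receptor gene Tek had 1. In the Notch pathway, Notch1 had a ratio of 9.64, the ligand gene Jag1 of 16.4 and the target genes Hey2 and Hes1 of 13.2 and 4.23. Bmp5 had a ratio of 70.8 from 6 UMIs, and Angpt2 and Dll4 had 0 UMIs.

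Genes of the basement membrane were above the remaining nuclei for 16 of 18 and at least 5-fold higher for 10 of 18. Over all genes, 37.9% were above and 4.15% at least 5-fold. Nidogen 1 (Nid1), which links laminin to collagen IV, had a ratio of 99.4 from 16 UMIs. The laminin genes Lamb2, Lama2, Lama4 and Lamc1 had ratios of 13.8, 12.8, 12.04 and 10.6. The collagen IV genes Col4a1 and Col4a2 had ratios of 1.502 and 0.711, and Agrn, the proteoglycan agrin, of 0.884. The list was not particular to mural nuclei, since its sum was 1153 CPM there, 1467 CPM in endothelial-marker and 2413 CPM in fibroblast-marker nuclei. Nid1 stood at 78.5 CPM in mural and 129 CPM in fibroblast-marker nuclei.

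Channels and receptors that set vessel tone were mixed, with 14 of 30 genes above the remaining nuclei and 6 at least 5-fold, where 37.9% and 4.15% of all genes were. Their median ratio was 0.974, and their sum was below that of the remaining nuclei (2930 against 3340 CPM), standing above it in 4 of 16 mice. The chloride channel gene Ano1 had a ratio of 44.3 from 6 UMIs, and the endothelin receptor gene Ednra of 20.3 from 7 UMIs. The phosphodiesterase genes Pde3a and Pde5a had ratios of 14.5 and 8.52, and the IP3 receptor gene Itpr2 of 9.29. Kcnma1 and Cacna1c, a BK and an L-type calcium channel gene that neurons also use, had ratios of 0.543 and 0.901.

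Of 15 solute transporters, 11 were above the remaining nuclei and 7 at least 5-fold, where 37.9% and 4.15% of all genes were. Slc30a10, a manganese exporter, had 81 UMIs and a ratio of 15.9, and Slc16a12, a creatine transporter, a ratio of 86.5. The folate transporter gene Slc19a1 had a ratio of 12.1, and Slc1a3, a glutamate transporter that astrocytes also use, had 94 UMIs and a ratio of 3.27.

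Among genes outside the rule with at least 100 UMIs, Cald1 had the highest ratio (13.1). Others among the highest were Zbtb20, a transcriptional repressor (6.70), Ptgds, the prostaglandin D2 synthase (5.85), and Ptn, the growth factor pleiotrophin (4.10). Ptgds came from 39 nuclei and Ptn from 140. The level of Ptgds was uneven, at 2669 CPM in WT control, 2051 CPM in WT alcohol, 202 CPM in 3xTg-AD control and 561 CPM in 3xTg-AD alcohol mural nuclei, pooled within each group, against 237 CPM in the remaining nuclei. These pooled levels rest on few nuclei and carry no test, and Ptgds was not among the genes called between genotypes. The level of Ptgds was 4390 CPM in fibroblast-marker and 1696 CPM in oligodendrocyte-marker nuclei, above the 1389 CPM of all mural nuclei. Lower ratios were seen for Pcp4 (2.08), the metallothionein gene Mt1 (2.05) and Mt3 (1.95), so the ratio fell off quickly among abundant genes.

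Markers of other cell types are given as a description, since the rule held part of each list at or near 0. It limited 3 of 9 neuronal, 2 of 15 endothelial and 2 of 10 fibroblast markers and 1 marker each of astrocytes, microglia, oligodendrocytes and their precursors. Endothelial markers summed to 157 CPM, against 11335 CPM in endothelial-marker nuclei and 123 CPM in the remaining nuclei. Of these 15 genes, 11 had a mural UMI, 9 were above the remaining nuclei and 1 at least 5-fold, with a median ratio of 1.18. Pecam1 and Cdh5 were at 0 UMIs, as were Flt1 and Cldn5 by the rule. Over all genes, 37.9% were above and 4.15% at least 5-fold. Fibroblast markers summed to 152 CPM, against 34.3 CPM in the remaining nuclei and 4060 CPM in fibroblast-marker nuclei. Of these 10 genes, 5 were above the remaining nuclei and 3 at least 5-fold, while Col1a1, Col3a1 and Lum were at 0. Astrocyte markers summed to 2645 CPM over 7 of 8 genes with a UMI, Aqp4 being at 0 by the rule, against 1506 CPM in the remaining nuclei and 7011 CPM in astrocyte-marker nuclei. Neuronal markers summed to 7862 CPM, below the 22216 CPM of the remaining nuclei. Oligodendrocyte markers stood at 854 against 503 CPM, precursor markers at 427 against 252 CPM and microglial markers at 196 against 146 CPM.

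Further lists bear on the treatments of the study. Of 32 interferon and MHC class I genes, which report antiviral and antigen presentation states, 21 were above the remaining nuclei and 5 at least 5-fold. Their sum was 756 against 317 CPM, mostly from few UMIs (B2m 26, H2-D1 24), and it was 2080, 1333 and 1318 CPM in endothelial-, microglia- and fibroblast-marker nuclei. Of 20 genes at Alzheimer loci, 12 were above and 0 at least 5-fold, with Apoe, the lipid carrier, at 477 UMIs and a ratio of 1.82. Over all genes, 37.9% were above and 4.15% at least 5-fold. Of the 13210 genes with a mural UMI, 7579 were above, beside 21 of 23 such interferon and MHC genes and 12 of 19 such Alzheimer genes. Of 11 enzymes of ethanol and acetaldehyde metabolism, 9 were in the table, and Aldh2, the mitochondrial aldehyde dehydrogenase, had 22 UMIs and a ratio of 3.48.

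The mural nuclei differed among themselves with the number of marker UMIs. In 64 nuclei with exactly 2 marker UMIs (median 1067 UMIs in all), the 26 other pericyte genes stood at 1103 CPM (95% exact Poisson interval 886 to 1357), and 54.7% of nuclei had at least 1 of their UMIs, near the 47.8% of neuron-marker nuclei. In 58 nuclei with 3 or 4 marker UMIs they stood at 3763 CPM (3267 to 4312). In 67 nuclei with 5 or more they stood at 5055 CPM (4535 to 5618), with 98.5% of nuclei. Astrocyte markers without Aqp4 ran the other way, at 4238, 2272 and 1058 CPM. The intervals cover counting error only.

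Contractile genes stood at 235, 1200 and 1484 CPM and matrix genes at 682, 1327 and 1572 CPM over the same 3 ranges. In 13 of 13 mice that held both kinds of nuclei, pericyte genes were higher and astrocyte markers lower at 5 or more marker UMIs than at 2. Nuclei at the lower limit thus held less pericyte RNA and more astrocyte RNA than those with 5 or more marker UMIs, within these mice as well as over all mice. Mice 26, 27 and 34 held only 1 nucleus each with 5 or more.

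**Figure D3:**
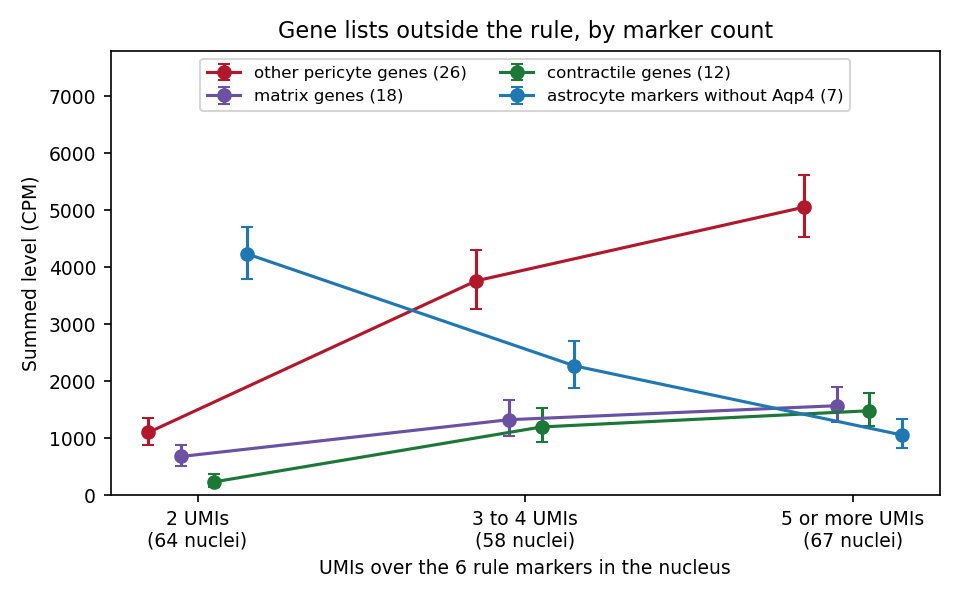
Summed level (CPM, y axis) of 4 gene lists outside the rule in mural nuclei with 2, 3 to 4, or 5 or more UMIs of the rule markers (x axis); bars are 95% exact Poisson intervals. Pericyte genes go from 1103 to 5055 CPM while astrocyte markers go from 4238 to 1058 CPM.

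These nuclei were spread unevenly over the mice. Nuclei with exactly 2 marker UMIs were 5 of 9, 4 of 7, 4 of 5 and 8 of 17 in WT control mice 26, 27, 28 and 36 and 10 of 14, 2 of 3, 3 of 20 and 3 of 16 in WT alcohol mice 6, 7, 17 and 18. They were 0 of 12, 2 of 13, 2 of 12 and 2 of 12 in 3xTg-AD control mice 12, 13, 14 and 21 and 9 of 23, 4 of 9, 3 of 11 and 3 of 6 in 3xTg-AD alcohol mice 4, 31, 33 and 34. WT alcohol mice 6 and 17 thus lay far apart within 1 group. The summed astrocyte markers ranged over the mice from 1439 to 6533 CPM in WT control, from 1292 to 2067 CPM in WT alcohol, from 2179 to 3174 CPM in 3xTg-AD control and from 1300 to 4715 CPM in 3xTg-AD alcohol mice. The sum of the other pericyte genes ranged from 128 to 2834 CPM in WT control, from 1749 to 4546 CPM in WT alcohol, from 3138 to 4329 CPM in 3xTg-AD control and from 2187 to 5799 CPM in 3xTg-AD alcohol mice. The lowest of these values was that of WT control mouse 28 with 5 mural nuclei. The contractile genes ranged from 128 to 1079 CPM in WT control and from 1126 to 1632 CPM in 3xTg-AD control mice. The signaling, matrix, vessel tone and transporter lists overlapped between these 2 groups. How many of all genes part these 2 groups of 4 mice was not counted. No difference between genotypes is therefore read from the ranges of the pericyte and contractile genes. The part of the marker count in these values was not tested.

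Whether genotype or alcohol changed the share of mural nuclei was compared over mice. The share was 0.129%, 0.141%, 0.0717% and 0.263% in WT control mice 26, 27, 28 and 36 and 0.157%, 0.0459%, 0.284% and 0.180% in WT alcohol mice 6, 7, 17 and 18. It was 0.205%, 0.181%, 0.167% and 0.166% in 3xTg-AD control mice 12, 13, 14 and 21 and 0.253%, 0.125%, 0.121% and 0.121% in 3xTg-AD alcohol mice 4, 31, 33 and 34. The 4 groups overlapped, and 3xTg-AD control mice lay closest together. The exact binomial 95% interval for 1 mouse was wide, for example 0.0589% to 0.244% for mouse 26.

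3xTg-AD mice held 0.167% ± 0.0464 (SD, n = 8) mural nuclei and WT mice 0.159% ± 0.0833 (SD, n = 8), a difference of 0.00850 percentage points (SE 0.0337; 2-sided exact permutation test, p = 0.805, adjusted over 3 comparisons 1.0). Mice exposed to alcohol held 0.161% ± 0.0772 (SD, n = 8) and controls 0.165% ± 0.0561 (SD, n = 8), a difference of -0.00452 percentage points (SE 0.0338; 2-sided exact permutation test, p = 0.896, adjusted 1.0). 3xTg-AD alcohol mice held 0.155% ± 0.0655 (SD, n = 4) and WT control mice 0.151% ± 0.0805 (SD, n = 4), with a 2-sided exact permutation p of 1.0. Without the library labelled WT alcohol mouse 17, the genotype difference was 0.0264 percentage points (2-sided exact permutation test, p = 0.408, adjusted 0.726) and the alcohol difference -0.0221 (p = 0.484, adjusted 0.726). The smallest p that the test of 4 against 4 mice can give is 0.0286, before adjustment. After adjustment over 3 comparisons, that p could not pass 0.05 unless another comparison also had a small p. These differences were smaller than the spread between mice, and with an SE of at least 0.0337 percentage points beside mean shares of 0.151% to 0.167% a moderate change was not detectable.

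Over all nuclei, only 4.56% (Rgs5) to 23.5% (Atp13a5) of a marker's UMIs lay in mural nuclei, so sums of the markers over all nuclei mostly read other nuclei. These sums stood at 19.7 to 43.5 CPM in WT control, 34.1 to 41.2 CPM in WT alcohol, 28.5 to 46.1 CPM in 3xTg-AD control and 33.6 to 40.3 CPM in 3xTg-AD alcohol mice. The groups overlapped. In such sums, fewer mural cells and less marker RNA per cell cannot be told apart.

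**Figure D4:**
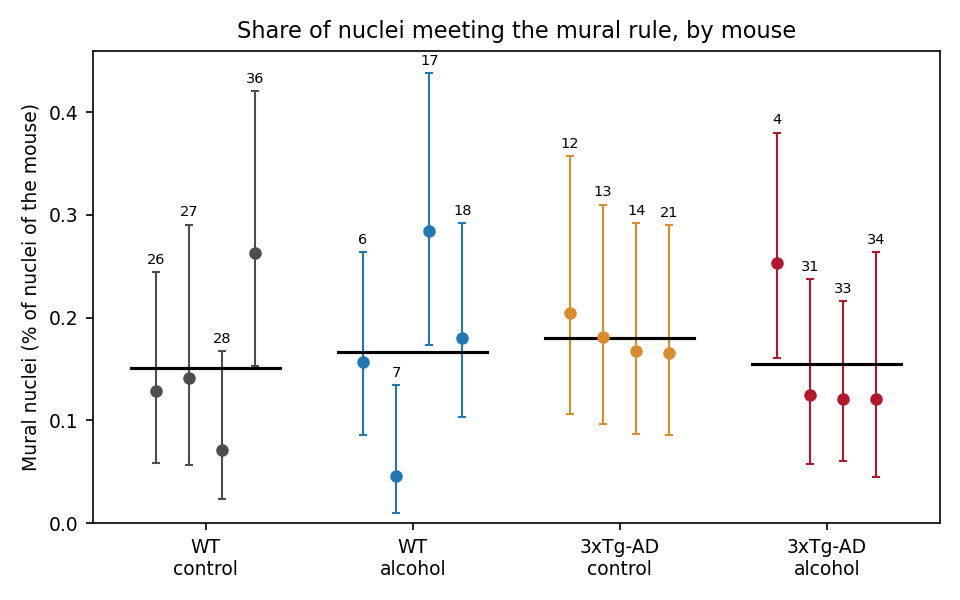
Mural nuclei as percent of all nuclei of the mouse (y axis), by group (x axis); points are mice with their numbers, bars are exact binomial 95% intervals and lines are group means. Means lie between 0.151% and 0.180%, and the mice of the 4 groups overlap.

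Gene expression in mural nuclei was compared between groups on counts summed per mouse, in the 10 mice with at least 10 mural nuclei (1 WT control, 3 WT alcohol, 4 3xTg-AD control and 2 3xTg-AD alcohol mice). The lone WT control mouse was assumed to vary like the mice of the other groups. With 1 mouse in that group, a gene could pass the filter on low counts through 1 mouse. Of 275 genes with enough counts, 2 differed between 3xTg-AD and WT mice (0.727%; edgeR quasi-likelihood test, Benjamini-Hochberg adjusted p at most 0.05), Tmsb4x higher and Rnf121 lower in 3xTg-AD mice, and 9 had an unadjusted p under 0.05. Both genes behaved in the remaining nuclei much as they did in mural nuclei.

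Tmsb4x (ENSMUSG00000049775, chrX:167207093-167209315 of GRCm38, minus strand) encodes thymosin β4, which binds actin monomers. Its level in mural nuclei was 1393, 1439, 2178 and 2891 CPM in WT control mice 26, 27, 28 and 36 and 1990, 4198, 2397 and 2438 CPM in WT alcohol mice 6, 7, 17 and 18. It was 3574, 7164, 6667 and 5986 CPM in 3xTg-AD control mice 12, 13, 14 and 21 and 4188, 4651, 6799 and 3233 CPM in 3xTg-AD alcohol mice 4, 31, 33 and 34. Only WT alcohol mouse 7, with 3 mural nuclei, reached into the 3xTg-AD range. The log2 fold change was 1.03 (SE 0.22, edgeR adjusted p = 0.0132). With all 16 mice it was 1.15 (SE 0.17, edgeR adjusted p = 5.1e-05), and Tmsb4x was then the only gene called of 93 (1.08%).

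In the remaining nuclei Tmsb4x stood at 814, 904, 1568 and 1575 CPM in WT control, 1957, 1897, 1549 and 1884 CPM in WT alcohol, 1707, 3396, 3635 and 3318 CPM in 3xTg-AD control and 3348, 2231, 3652 and 2233 CPM in 3xTg-AD alcohol mice. The 3xTg-AD mice were thus higher there as well, except that mouse 12 lay below WT alcohol mice 6, 7 and 18. The genotype difference in mural nuclei exceeded that in the remaining nuclei by 0.10 (log2, SE 0.18, edgeR adjusted p = 0.996). No difference particular to mural nuclei was thus shown. Tmsb4x was found in 97.4% of mural and 95.4% of neuron-rich nuclei, and the part of free RNA in its mural level was not tested. The Tmsb4x call was lost without any 1 of mice 17, 18, 14, 21, 4 and 33 (edgeR adjusted p of 0.0668 to 0.202), with DESeq2 (adjusted p = 0.377) and with no filter on low counts (edgeR adjusted p = 1.0). It stood in 6 of 14 alternatives, over which the log2 fold change ran from 0.92 to 1.15 and the adjusted p from 5.1e-05 to 1.0.

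Rnf121 (ENSMUSG00000070426, chr7:102019137-102065469, minus strand) encodes a ubiquitin ligase of the RING finger family. Mural nuclei of WT control mice 26, 27, 28 and 36 held 3, 1, 2 and 18 UMIs of it and those of WT alcohol mice 6, 7, 17 and 18 held 10, 5, 0 and 12. Those of 3xTg-AD control mice 12, 13, 14 and 21 held 1, 0, 1 and 0, and all 4 3xTg-AD alcohol mice held 0. The library labelled WT alcohol mouse 17 thus stood with the 3xTg-AD mice. Among the 10 mice tested, the level was highest in WT control mouse 36 (1020 CPM), against 603 and 665 CPM in WT alcohol mice 6 and 18. The UMIs of mice 36, 6 and 18 came from 4 of 17, 6 of 14 and 3 of 16 mural nuclei. Rnf121 was found in 10.6% of mural and 29.4% of the deeper neuron-rich nuclei. The part of free RNA in its mural level was not tested. Rnf121 thus entered the test through WT mice in which it was high, so its call is not independent of that level. The fitted log2 fold change was -5.06 (SE 1.17, edgeR adjusted p = 0.0279), a value that depends on the prior count because most 3xTg-AD mice were at 0.

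In the remaining nuclei Rnf121 stood at 213, 334, 563 and 1090 CPM in WT control mice, at 549, 1176, 21.3 and 873 CPM in WT alcohol mice and at 20.5 to 24.9 CPM in all 8 3xTg-AD mice. The library labelled WT alcohol mouse 17 was at the 3xTg-AD level there as well, while its Tmsb4x lay within the range of the other WT mice (2397 CPM in mural and 1549 CPM in the remaining nuclei). Without this library the log2 fold change of Rnf121 was -5.32 (edgeR adjusted p = 0.000939), and that of Tmsb4x was 1.05 (edgeR adjusted p = 0.202). The genotype difference in mural nuclei exceeded that in the remaining nuclei by 0.19 (log2, SE 1.15, edgeR adjusted p = 0.996), so this gene was not particular to mural nuclei either. The Rnf121 call was lost without any 1 of mice 6, 18, 13, 14, 21 and 4 and stood in 6 of 12 alternatives, with adjusted p-values from 1.27e-05 to 0.548. Over these alternatives its log2 fold change ran from -5.36 to -4.78.

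**Figure D5:**
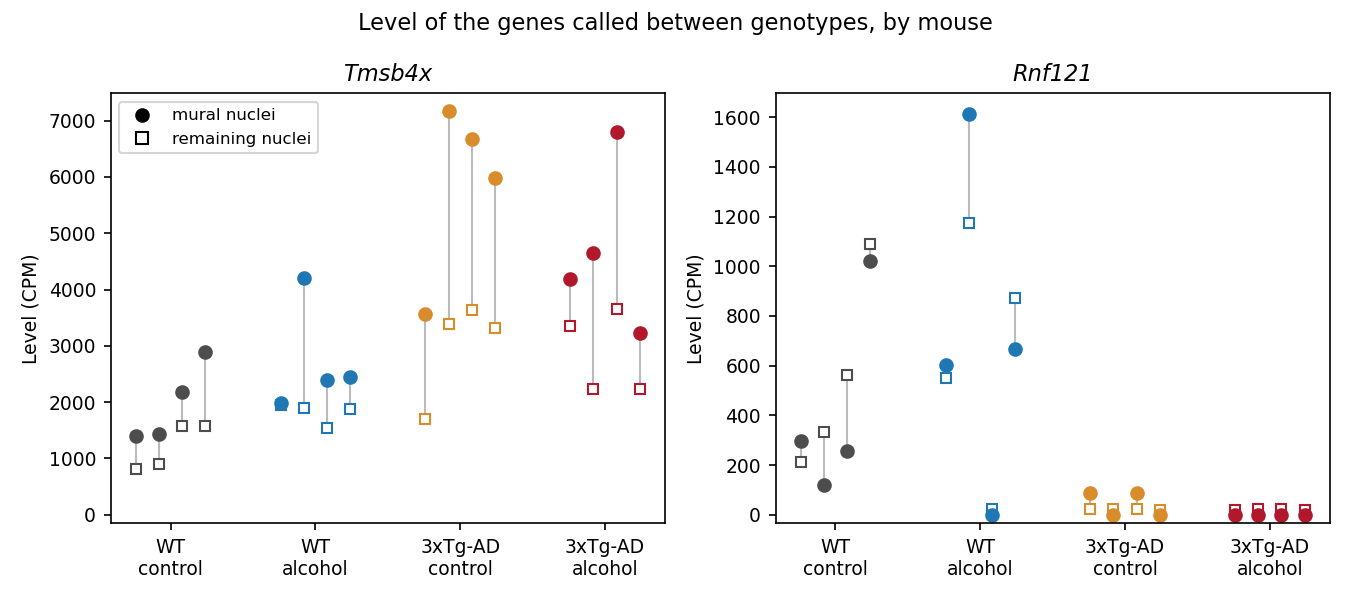
Level (CPM, y axis) of Tmsb4x (left) and Rnf121 (right) in mural nuclei (filled circles) and in the remaining nuclei of the same mouse (open squares), by group (x axis). Tmsb4x stands at 3233 to 7164 CPM in mural nuclei of 3xTg-AD mice and at 1393 to 4198 CPM in those of WT mice; Rnf121 stands at 20.5 to 24.9 CPM in the remaining nuclei of 3xTg-AD mice.

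Alcohol against control, over both genotypes, gave 0 calls among the 275 genes (0.0%; edgeR), with 18 genes at an unadjusted p under 0.05, and DESeq2 gave 0 calls with 10. 3xTg-AD alcohol against WT control also gave 0 calls by edgeR (0.0%; 14 genes at an unadjusted p under 0.05) and by DESeq2 (6 genes). With all 16 mice this comparison called Tmsb4x (log2 fold change 1.26, edgeR adjusted p = 0.0025; 1.08% of 93 genes). The interaction of genotype and alcohol gave 0 calls by edgeR (0.0%; 5 genes at an unadjusted p under 0.05) and by DESeq2 (2 genes).

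The rule markers chose the nuclei, so their levels by group are a description. Their sum in mural nuclei ranged over the mice from 1409 to 3628 CPM in WT control, from 2260 to 5125 CPM in WT alcohol, from 4589 to 5804 CPM in 3xTg-AD control and from 2425 to 4400 CPM in 3xTg-AD alcohol mice. The rule set a minimum on these same counts, so no difference between groups is read from the ranges.

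The lists outside the rule had few genes with enough counts, and 0 of those were called. Tested were 1 of 26 other pericyte genes, 1 of 12 contractile genes, 1 of 30 vessel tone genes and 2 of 15 transporters. The interferon, signaling, matrix and ethanol lists had 0 genes tested, so the lack of calls says nothing about them. Zic1, the only other pericyte gene tested, had log2 fold changes of -0.83 (SE 0.47, edgeR adjusted p = 0.881) between genotypes and -0.50 (SE 0.47, edgeR adjusted p = 0.788) between alcohol and control. The values for Cald1 were 0.20 (SE 0.40) and 0.04 (SE 0.40), and for Slc1a3 -0.12 (SE 0.52) and 0.27 (SE 0.52). The values for Apoe were -0.17 (SE 0.26) and -0.07 (SE 0.27).

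Slc1a2, the astrocyte glutamate transporter, was chosen for description after its values were seen, because it had the smallest p in the alcohol comparison. It stood in mural nuclei at 2587, 1079, 4612 and 3514 CPM in WT control mice 26, 27, 28 and 36 and at 965, 969, 1612 and 998 CPM in WT alcohol mice 6, 7, 17 and 18. It stood at 1743, 2176, 2078 and 1900 CPM in 3xTg-AD control mice 12, 13, 14 and 21 and at 1149, 2879, 800 and 2829 CPM in 3xTg-AD alcohol mice 4, 31, 33 and 34. Mice 31 and 34, which had under 10 mural nuclei and were not in the fit of 10 mice, stood above every 3xTg-AD control mouse. The log2 fold change was -1.09 (SE 0.28, edgeR adjusted p = 0.138), with all 16 mice -0.59 (edgeR adjusted p = 0.481), and with at least 3 marker UMIs and no minimum of nuclei per mouse 0.24 (edgeR adjusted p = 0.847). Without the library labelled WT alcohol mouse 17 it was -1.32 (edgeR adjusted p = 0.0301). It was called in 3 of 14 alternatives, with adjusted p-values from 0.0301 to 1.0. Nuclei with exactly 2 marker UMIs, which held the most astrocyte RNA, varied within groups, with 10 of 14 in WT alcohol mouse 6 and 3 of 20 in mouse 17, and their part in the difference was not tested.

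Differences particular to mural nuclei were tested by setting the change in mural nuclei against that in the remaining nuclei of the same mice. The genotype difference gave 0 calls (0.0%; 9 genes at an unadjusted p under 0.05 in edgeR, and DESeq2 was not run on this comparison). The alcohol difference gave 1 call (0.364%), AC149090.1, a transcript with no position in the annotation used here, by 2.27 on the log2 scale (SE 0.36, edgeR adjusted p = 0.0002).

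AC149090.1 stood in mural nuclei at 298, 1199, 384 and 623 CPM in WT control mice 26, 27, 28 and 36 and at 2956, 1937, 951 and 776 CPM in WT alcohol mice 6, 7, 17 and 18. It stood at 610, 90.7, 86.6 and 1045 CPM in 3xTg-AD control mice 12, 13, 14 and 21 and at 1038, 0, 200 and 0 CPM in 3xTg-AD alcohol mice 4, 31, 33 and 34. The groups overlapped in mural nuclei, and mice 31 and 34, which were outside the fit, were at 0. In the remaining nuclei it stood at 1393 to 5067 CPM in WT control, 1318 to 3578 CPM in WT alcohol, 1314 to 4375 CPM in 3xTg-AD control and 277 to 1518 CPM in 3xTg-AD alcohol mice, so the transcript varied widely from mouse to mouse in all nuclei. The AC149090.1 call was lost without WT control mouse 36 (edgeR adjusted p = 0.133), the only WT control mouse in the fit, and with endothelial-marker nuclei as the reference (log2 1.42, edgeR adjusted p = 0.774). It stood in the other 10 of 12 alternatives, with adjusted p-values from 2.65e-05 upward. With mice left out 1 at a time, mouse 36 included, the log2 difference ran from 2.04 to 2.46.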

How the data were processed

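Nuclei of the prefrontal cortex of 16 mice were profiled with 10x Genomics 3′ chemistry. Per the submitters' processing notes, reads were aligned with Cell Ranger 6.1.1 (STAR) to mm10. The authors deposited raw UMI counts per gene and nucleus, filtered by limits not given in the sources used here; in each mouse, no gene had UMIs in 1 to 4 nuclei. 3′ UMI counts are not scaled by gene length. The members and gene lists were chosen with earlier results of these data known. No doublet caller was run here. Levels are CPM of UMIs summed over nuclei. Comparison classes had at least 2 UMIs over at least 2 of their own markers and 0 of the leading markers of other classes, the mural markers included.

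Counts were summed per mouse and tested with the quasi-likelihood method of edgeR 4.0.16 (R 4.3.3, limma 3.58.1, statmod 1.5.0; TMM, filterByExpr) with a mean per group, with calls at an adjusted p up to 0.05; DESeq2 1.42.0 was an alternative. SE is the log2 fold change over the root of the test's F. Genes named were those called, the rule genes, the highest of each list, and the 25 highest ratios among genes with at least 100 UMIs in at least 12 mice; genes named from the lists by their ratio were chosen after their values were seen. Shares were compared with exact permutation tests (scipy 1.17.1, Python 3.11.15). Scripts were tested on simulated data. Some genes are not reported here.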

Additional observations from a re-analysis of the deposited data

Results flagged for a closer look

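In 36 sets of 4 mice, a mouse stood apart from the other 3 of its group 3 times by Dixon's test, where chance alone gives about 1 in 20. The share of mural nuclei was 0.253% in 3xTg-AD alcohol mouse 4, against 0.121% to 0.125% in the other mice of the group. The sum of the other pericyte genes in mural nuclei was 128 CPM in WT control mouse 28, which had 5 mural nuclei, against 2398 to 2834 CPM. Slc1a2 in mural nuclei was 1612 CPM in WT alcohol mouse 17, against 965 to 998 CPM. No cause of these values was tested.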

How the results depend on the processing

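The depth limits these results: a mouse gave 3 to 23 mural nuclei. No paired analysis was possible because mouse numbers do not repeat across groups. Among the 189 nuclei, requiring at least 3 marker UMIs with 10 nuclei per mouse left no WT control mouse and was not run, nor were the comparisons within mural nuclei without WT control mouse 36. Requiring at least 3 marker UMIs with no minimum of nuclei, and at least 5 for shares, were chosen after seeing the data. The cause of the changes below was not tested.

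The genotype difference in share (0.00850 percentage points) was -0.00838 of nuclei with at most 1 neuronal UMI and -0.00482 when the 3 mice highest in Gm42418 were left out, 0.0361 at 3 or more marker UMIs, and ran from -0.00764 to 0.0264 with mice left out. That of alcohol (-0.00452) was 0.0168 with nuclei thinned to 1000 UMIs, 0.000251 of nuclei with at most 1 neuronal UMI and 0.0127 at 5 or more marker UMIs, and ran from -0.0221 to 0.0119. That of 3xTg-AD alcohol against WT control (0.00398) was -0.00813 and -0.0122 under the same first 2 settings as for genotype, 0.0231 with nuclei thinned, 0.0252 and 0.0237 at 3 and at 5 or more marker UMIs, and ran from -0.0288 to 0.0413. None passed the threshold, with adjusted permutation p-values of at least 0.557.

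The 2 genotype calls became 1 with DESeq2 (Rnf121), with no filter on low counts, with all 16 mice (Tmsb4x) and at 3 or more marker UMIs with no minimum, and 0 to 2 with mice left out. Rnf121 was not among the genes tested with all 16 mice or at 3 or more marker UMIs, so its call was not lost there. The 0 alcohol calls became 1 with RLE normalization (Slc1a2), with no filter (Ptgds), without 3xTg-AD control mouse 12 (Slc1a2), the only one of the 3 mice highest in Gm42418 that was in this fit, and at 3 or more marker UMIs (Gm42418), and 0 to 1 with mice left out. The 0 calls of 3xTg-AD alcohol against WT control became 1 with no filter (Rnf121) and with all 16 mice (Tmsb4x), and 0 to 1 with mice left out. Against the remaining nuclei, the 0 genotype calls were 0 to 1 with mice left out. The 1 alcohol call was 3 with RLE normalization, 0 without WT control mouse 36, 6 without WT alcohol mouse 17, 5 without 3xTg-AD alcohol mouse 33 and 0 to 6 over all mice left out. The fits against the remaining nuclei all tested the same 275 genes. Slc1a2 turned from -1.09 to 0.24 at 3 or more marker UMIs with no minimum of nuclei, and was -0.59 with all 16 mice under the rule as given. With 16 mice, DESeq2 called 2 genotype genes and 1 alcohol gene, each of at most 93 genes.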
